A study of Mus musculus with 2 samples.

Results

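The peaks described here are ATF4 peaks that lay inside protein-coding genes shorter than 100 kb and away from the ends of any gene. The position of highest signal of a peak, its summit, had to lie inside a protein-coding gene of the RefSeq GRCm38.p6 gene table and more than 1 kb from both ends of every annotated gene of any kind. Where a summit lay inside several protein-coding genes, the longest was taken as its host, which was so for 19 peaks. By this rule 1282 of the 7873 peaks in the list (16.3%) were members, in 1170 host genes. Another 1558 peaks (19.8%) met the same rule inside genes of 100 kb or more, and the other 5033 (63.9%) lay near a gene end or outside protein-coding genes.

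The data came from CUT&Tag in primary neurons of the cortex and hippocampus of embryonic C57BL/6 mice, labelled as primarily neurons, with about 100000 cells in each assay. There were 2 libraries, 1 made with an antibody against ATF4 (CST, #11815) and 1 with control IgG (Millipore, 12-370), and the peak list analysed was that of the ATF4 library. The IgG library was not analysed here, and neither the labels nor the methods of the assay name a treatment of these neurons. With 1 library there was no replicate, so no difference was tested, and every interval given is a 95% interval that covers counting error only.

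ATF4 is a basic leucine zipper (bZIP) transcription factor whose translation rises when stress kinases such as PERK phosphorylate the initiation factor eIF2α. It binds DNA as a dimer with other bZIP proteins and is known for switching on genes of amino acid uptake, amino acid synthesis and tRNA charging, and genes of the wider stress response. In CUT&Tag the antibody tethers a transposase that cuts and tags the DNA around the bound protein, so a peak marks where tagged fragments gathered and not whether the gene was expressed.

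The sequences shown here are the 300 bases around an annotated start (250 before it and 50 after it) for 5 members whose peaks overlapped such a window. They were taken because 4 of them, in Aars, Eprs, Mthfd2 and Tef, were among the 15 members of highest fold enrichment, and because the windows of Aars and Tmem268 held a match to the letters TGATGNAA, searched on both strands as the core of the known C/EBP-ATF response element, together with the summit itself. Larp1 and Slc6a9, also among the 15, overlapped start windows that are not printed. Each is printed 5′ to 3′ on the strand of the gene from RefSeq GRCm38.p6, and capitals mark matches. The windows lie at chr8:111033592-111033891 (+) for Aars, chr4:63558513-63558812 (+) for Tmem268, chr1:185362794-185363093 (+) for Eprs, chr6:83317555-83317854 (-) for Mthfd2 and chr15:81811164-81811463 (+) for Tef.
Aars: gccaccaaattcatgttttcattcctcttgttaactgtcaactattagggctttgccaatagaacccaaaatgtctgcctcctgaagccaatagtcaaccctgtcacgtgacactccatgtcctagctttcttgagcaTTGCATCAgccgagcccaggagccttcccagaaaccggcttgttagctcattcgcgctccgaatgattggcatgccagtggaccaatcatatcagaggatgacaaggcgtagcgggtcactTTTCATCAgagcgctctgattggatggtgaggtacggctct
Tmem268: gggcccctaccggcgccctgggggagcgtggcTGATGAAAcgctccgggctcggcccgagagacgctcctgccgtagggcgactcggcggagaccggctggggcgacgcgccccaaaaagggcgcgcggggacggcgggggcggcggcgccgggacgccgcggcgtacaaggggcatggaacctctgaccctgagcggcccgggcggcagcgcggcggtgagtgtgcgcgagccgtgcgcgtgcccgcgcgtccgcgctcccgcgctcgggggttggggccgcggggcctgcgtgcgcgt
Eprs: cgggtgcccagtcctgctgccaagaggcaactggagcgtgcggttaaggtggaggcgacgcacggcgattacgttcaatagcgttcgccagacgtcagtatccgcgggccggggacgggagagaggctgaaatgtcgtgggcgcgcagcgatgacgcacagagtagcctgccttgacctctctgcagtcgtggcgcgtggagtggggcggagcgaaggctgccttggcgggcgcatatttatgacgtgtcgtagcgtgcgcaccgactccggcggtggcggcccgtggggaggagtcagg
Mthfd2: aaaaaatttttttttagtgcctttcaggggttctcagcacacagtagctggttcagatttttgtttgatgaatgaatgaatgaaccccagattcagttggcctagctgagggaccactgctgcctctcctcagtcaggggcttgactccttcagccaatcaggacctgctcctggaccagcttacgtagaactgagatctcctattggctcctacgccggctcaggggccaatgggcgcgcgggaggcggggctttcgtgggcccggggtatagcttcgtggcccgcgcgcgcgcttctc
Tef: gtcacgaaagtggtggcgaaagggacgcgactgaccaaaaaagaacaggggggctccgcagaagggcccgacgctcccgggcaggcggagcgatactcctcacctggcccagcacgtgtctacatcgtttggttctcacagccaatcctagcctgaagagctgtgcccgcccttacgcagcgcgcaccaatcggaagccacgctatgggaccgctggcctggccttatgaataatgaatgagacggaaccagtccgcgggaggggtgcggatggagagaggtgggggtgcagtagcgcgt

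In the Aars window the reverse-strand match TTGCATCA stood at bases 139 to 146, 42 bp from the summit, and TTTCATCA at bases 260 to 267, 164 bp from it. In Tmem268, which encodes a transmembrane protein, the match TGATGAAA at bases 33 to 40 lay 116 bp from the summit. The letters were not in the windows of Eprs, Mthfd2 and Tef. Of all 32851 start windows of the table, 3.97% held TGATGNAA. Of the 97 windows that overlapped 78 members, 4 did (4.12%, 1.13 to 10.2%), a share near that of all windows. Of the 48 windows that held the summit of 43 members, 2 did (4.17%, 0.509 to 14.3%). The narrower TGATGCAA was in 0.895% of all windows and in 1 of the 97. Sequence outside the start windows was not analysed here.

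Most members were low peaks. The fold enrichment, the authors' ratio of signal at the summit to the local background, had a median of 4.20 (4.14 to 4.26), quartiles of 3.62 and 5.12 and a range of 3.23 to 35.1. Solved from the fold enrichment and its p-value, 558 members (43.5%) rested on 3 fragments at the summit, a count whose own interval runs from 0.619 to 8.77. At least 6 fragments stood behind 253 members (19.7%, 17.6 to 22.0%) and at least 20 behind 29 (2.26%, 1.52 to 3.23%). Over all 7873 peaks the median fold was 4.33, with 3 fragments in 41.0%, at least 6 in 24.3% (23.3 to 25.2%) and at least 20 in 2.35% (2.03 to 2.71%). Peaks inside longer genes had a median of 4.03 (3.68 to 4.20), with at least 6 fragments in 18.9% (17.0 to 20.9%) and at least 20 in 11 of 1558 (0.706%, 0.353 to 1.26%). The members had a share of at least 20 fragments near that of the whole list and a share of at least 6 below it, while peaks inside longer genes were below the whole list in both. Members were narrow, with a median width of 202 bp and a range of 165 to 1802 bp.

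**Figure D1:**
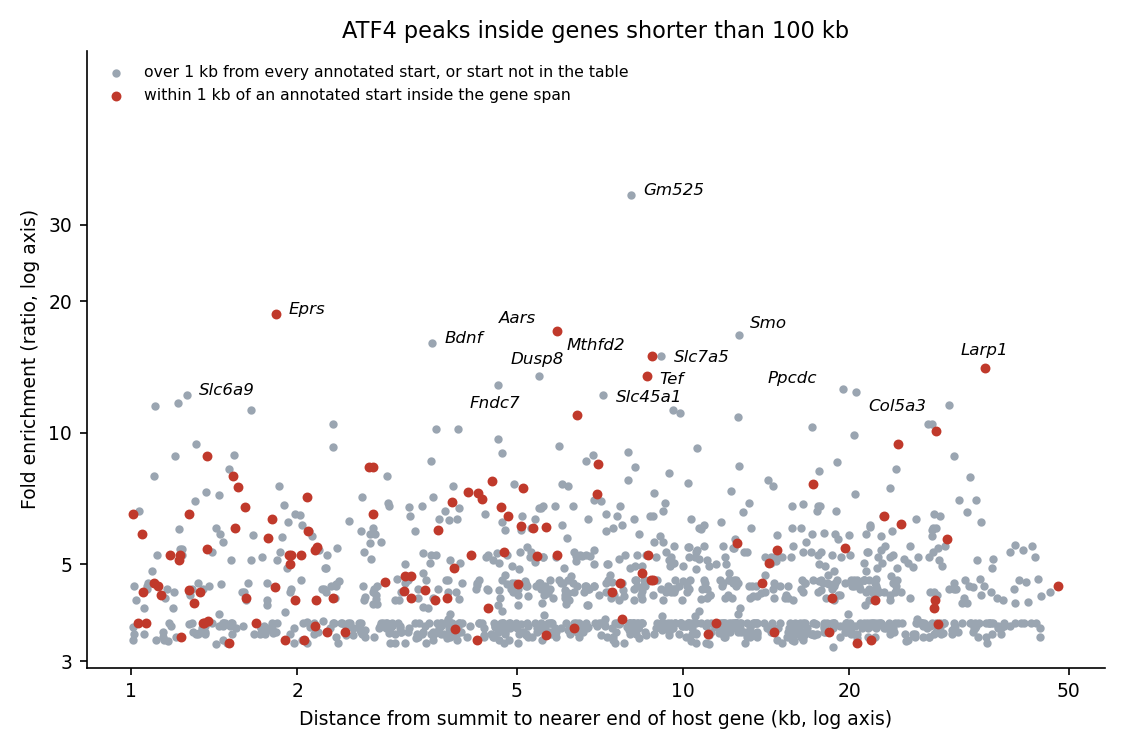
Fold enrichment (log axis) of each of the 1282 members against the distance in kb from its summit to the nearer end of the host gene (log axis). Each point is 1 peak, red points lie within 1 kb of an annotated start inside the gene span, and the 15 members of highest fold are named. Gm525 at 35.1 stands above all others, and 5 of the 15 are red.

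The highest members fell in genes of amino acid and tRNA metabolism beside genes of other kinds. Eprs, which charges glutamate and proline tRNAs, held a peak of 18.7-fold and 43 fragments (31.1 to 57.9) at chr1:185362954-185363773. Aars, which charges alanine tRNA, held one of 17.1-fold and 89 fragments (71.5 to 109.5) at chr8:111033318-111034216. Slc7a5, the light chain of the LAT1 carrier of large neutral amino acids, held one of 15-fold and 118 fragments (97.7 to 141.3) at chr8:121898006-121898955. The intervals of Aars and Slc7a5 overlap, and both lie above that of Eprs.

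Mthfd2, a mitochondrial enzyme of the folate cycle that oxidizes methylene-tetrahydrofolate, held a peak of 15-fold and 29 fragments (19.4 to 41.6) at chr6:83316940-83317654. Slc6a9, the glycine transporter GlyT1, held the widest peak of all members, 1802 bp, with 12.2-fold and 48 fragments (35.4 to 63.6) at chr4:117834954-117836755, its summit 1.26 kb inside the gene and its edge past the 5′ end, which lies at position 117835258. Bdnf, the neurotrophin of activity-dependent neuronal survival, held one of 16.1-fold and 46 fragments (33.7 to 61.4), 3504 bp inside its 5′ end. The intervals of Mthfd2 and Bdnf overlap, and neither reaches that of Aars.

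The 2 members with most fragments belonged to neither group. Gm525, a predicted gene, held 702 fragments (651.0 to 755.9) at 35.1-fold in a peak of 354 bp, 8.03 kb inside the gene, over a background of 19 fragments. Smo, the Smoothened receptor of Hedgehog signalling, held 384 (346.5 to 424.4) at 16.8-fold in 723 bp, 12.6 kb inside, over a background of 21.9. For comparison, the backgrounds solved for Eprs, Mthfd2 and Slc7a5 were 1.36, 1.00 and 6.93 fragments.

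The rest of the 15 highest members had folds between 12.2 and 14.1. They were Larp1, an RNA-binding protein that controls translation of ribosomal protein mRNAs (14.1-fold, 32 fragments), Dusp8, a phosphatase of MAP kinases (13.5-fold, 35 fragments), and Tef, a PAR bZIP factor of the circadian output (13.5-fold, 22 fragments). Fndc7 (12.9-fold, 19 fragments), Ppcdc of coenzyme A synthesis (12.6-fold, 33 fragments), the collagen chain Col5a3 (12.4-fold, 27 fragments) and the sugar transporter Slc45a1 (12.2-fold, 16 fragments) completed them. The fragment intervals of all 7 overlap one another, so their numbers of fragments were not told apart at this depth.

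Members were denser on the 5′ side of their hosts than on the 3′ side. The strand was known for the hosts of 1028 members, and 569 of these (55.4%, 52.3 to 58.4%) had their summit nearer the 5′ end, where 50% of the eligible bases lie. Eligible bases are those inside protein-coding genes and over 1 kb from every gene end, where a member could have fallen. The 5′ side held 3.83 peaks per Mb of them (3.52 to 4.16) and the 3′ side 3.09 (2.81 to 3.39).

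The excess lay next to the 5′ end. From 1 to 2 kb inside it there were 93 members, or 8.10 per Mb (6.54 to 9.92), against 4.39 per Mb (3.67 to 5.21) at 2 to 5 kb, 3.63 (3.04 to 4.31) at 5 to 10 kb and 2.80 (2.31 to 3.37) at 10 to 20 kb. At 20 to 50 kb there were 3.27 per Mb (2.67 to 3.97), so the band of 10 to 20 kb was the lowest. The first band was 2.89 times as dense as that of 10 to 20 kb (2.17 to 3.84). From the 3′ end the same bands were level, with 2.93 per Mb (2.03 to 4.10) at 1 to 2 kb and 3.03 (2.51 to 3.61) at 10 to 20 kb, a ratio of 0.969 (0.642 to 1.43). Taller peaks went the same way, since 31.2% of the members in the first 5′ band and 8.82% in the first 3′ band, 3 of 34, had at least 6 fragments. Inside longer genes the first 5′ band held 14.0 per Mb (8.96 to 20.8) and the first 3′ band 1.68 (0.346 to 4.91).

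**Figure D2:**
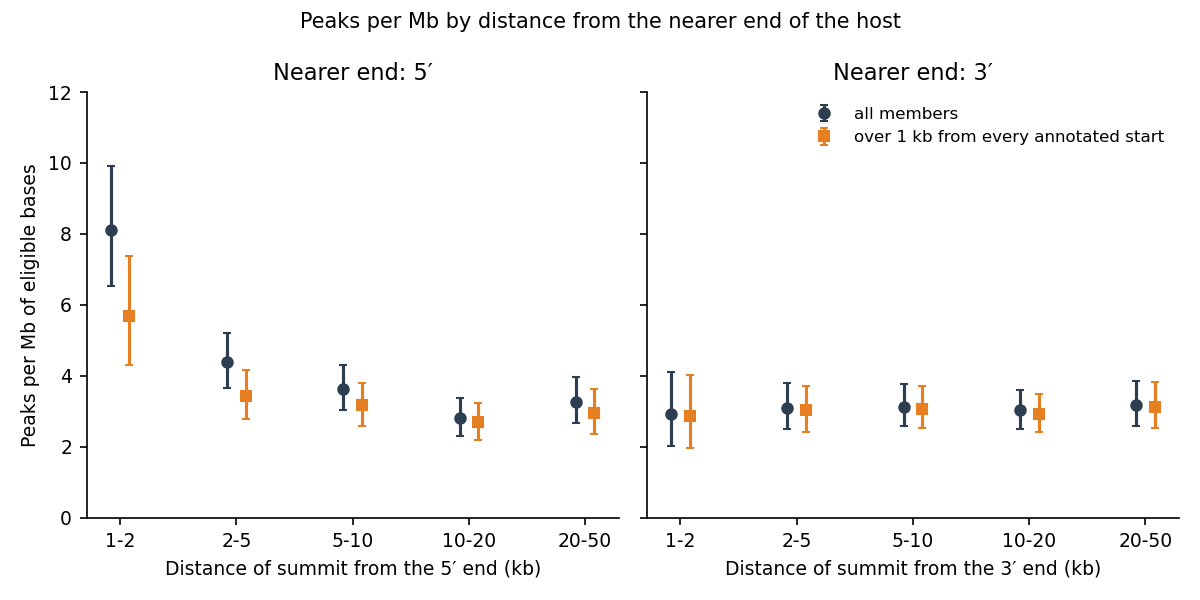
Peaks per Mb of eligible bases by distance in kb of the summit from the nearer end of the host, for the 5′ end (left) and the 3′ end (right), over 1028 members with a host of known strand. Points are densities and bars exact Poisson 95% intervals, dark for all members and orange for members and bases over 1 kb from every annotated start. Density falls from 8.10 to 2.80 per Mb between 1 and 20 kb from the 5′ end and is 3.27 at 20 to 50 kb. It stays between 2.93 and 3.18 from the 3′ end.

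Over both ends, 441 members (34.4%, 31.8 to 37.1%) lay within 5 kb of the nearer end, a band that held 27.7% of the eligible bases. The median distance to that end was 8015 bp, from 1007 to 47888 bp, and the median position was 45.4% of the way from the 5′ to the 3′ end. The member farthest from an end was in Atp2b4, a plasma membrane calcium pump, with 4.46-fold and 4 fragments, and it lay 576 bp from an annotated start of that gene. Fgd5 (4.33-fold, 46270 bp) and Cfap77 (4.24-fold, 44517 bp) followed.

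Many genes have further transcripts that begin inside the span of the gene, and members gathered at those starts. On chromosomes with start windows, the summit of 119 of 1250 members (9.52%, 7.95 to 11.3%) was at most 1 kb from an annotated start, against 1.48% of the eligible bases. This is 22.3 peaks per Mb at such starts and 3.17 elsewhere. The nearest start belonged to the host itself in 118 of the 119. The rule largely sets this count, since it drops peaks within 1 kb of the ends of any other gene. Inside longer genes 39 of 1492 peaks (2.61%, 1.87 to 3.56%) lay there against 0.392% of bases.

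The share at starts was higher among taller members. It was 4.04% (2.55 to 6.05%) of members with 3 fragments, 10.2% (7.62 to 13.4%) with 4 or 5, 17.1% (11.7 to 23.7%) with 6 to 9, 25.9% (15 to 39.7%) with 10 to 19 and 28.6% (13.2 to 48.7%), 8 of 28, with 20 or more. The class of 3 fragments lay below all the others, and neighbouring classes from 4 fragments up overlap in their intervals. Members at starts had a median fold of 5.01 (4.52 to 5.27) and a median width of 252 bp, and members farther away 4.14 (3.76 to 4.20) and 199 bp. Removing the bases and members within 1 kb of a start left the first 5′ band at 5.69 per Mb (4.31 to 7.37) and the band of 10 to 20 kb at 2.69 (2.20 to 3.25), a ratio of 2.12 (1.51 to 2.95).

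**Figure D3:**
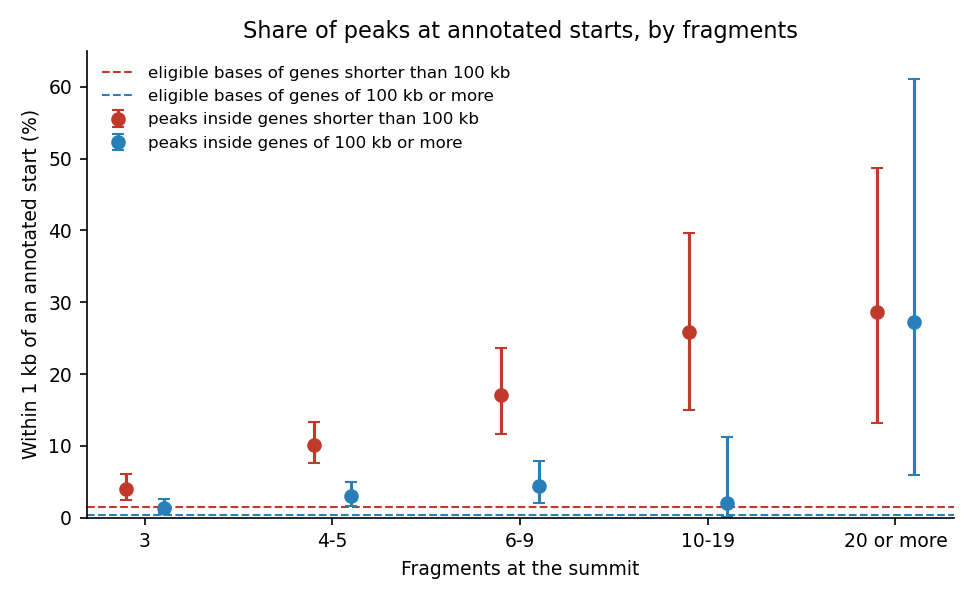
Share in percent of peaks whose summit lay within 1 kb of an annotated start, by the number of fragments at the summit, for peaks inside genes shorter than 100 kb (red) and of 100 kb or more (blue). Points are shares with Clopper-Pearson 95% intervals and dashed lines the share of eligible bases there (1.48% and 0.392%); the red points run from 4.04% to 28.6%.

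Several of the tallest members were of this kind, Aars, Eprs, Mthfd2 and Tef of the windows printed above included. Around such a start the Eprs summit lay 200 bp downstream, the Aars summit 0.151 kb upstream, the Tef summit 0.130 kb upstream and the Larp1 summit 0.367 kb upstream. The Mthfd2 summit lay 388 bp downstream of such a start, at 43.3% of the gene span from its 5′ end. Slc3a2, the heavy chain that partners Slc7a5, held a peak of 11.0-fold and 25 fragments (16.2 to 36.9) 579 bp downstream of a start. In contrast the summits of Gm525, Smo, Ppcdc and Col5a3 lay over 8 kb from every start in the table.

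Host genes were long for their class. Their spans had a median of 39.5 kb per member, against 18.0 kb over the 16274 genes under 100 kb that had any eligible base. Of these genes 7.19% were hosts, and the share was 1.30% (1.00 to 1.66%) below 10 kb, 5.47% (4.77 to 6.24%) at 10 to 20 kb, 9.34% (8.55 to 10.2%) at 20 to 50 kb and 17.1% (15.7 to 18.7%) at 50 to 100 kb. Per Mb of eligible bases the order was different, with 3.97 (3.07 to 5.04), 4.72 (4.11 to 5.39), 3.50 (3.20 to 3.82) and 3.01 (2.75 to 3.29) in the same classes. Over all members the density was 3.45 per Mb (3.27 to 3.65), 1.32 times (1.23 to 1.42) that inside longer genes, 2.62 (2.49 to 2.75). With at least 6 fragments the ratio was 1.38 (1.16 to 1.64). Of the 595.8 Mb of eligible bases in longer genes, 367.8 Mb lay over 50 kb from an end, where no member can fall. Peaks there numbered 2.43 per Mb. At equal distance from the nearer end the intervals overlapped in each band. Members were lower at 1 to 2 kb, with 5.42 per Mb (4.60 to 6.34) against 7.09 (4.85 to 10.0). They were higher in the other bands, with 3.06 (2.68 to 3.47) against 2.82 (2.55 to 3.11) at 20 to 50 kb.

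Hosts had a peak at their ends about as often as other genes. Of the 1170 hosts, 110 (9.40%, 7.79 to 11.2%) also had a peak within 1 kb of an own end, against 9.25% of the other eligible genes and 9.26% of all eligible genes. Aars, Mthfd2, Slc7a5, Dusp8 and Tef were among the 110. The end peak was lower than the inner one in Aars (4.27-fold against 17.1-fold), Mthfd2 (3.46-fold against 15-fold), Slc7a5 (6.66-fold against 15-fold), Dusp8 (5.52-fold against 13.5-fold) and Tef (5.72-fold against 13.5-fold). The Aars end peak lay 879 bp past the 3′ end of the gene, and those of Mthfd2, Dusp8 and Tef lay at the 5′ end.

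Most hosts, 1072, held 1 member, 85 held 2, 12 held 3 and 1 held 4. Neighbouring members of 1 host were a median of 12.7 kb apart, over 112 such pairs. The gene with 4 was Elk3, an ETS transcription factor, with folds of 10.5, 8.34, 6.44 and 4.32 on 31, 18, 19 and 6 fragments. Among genes with 3 were Notch1, the receptor of lateral signalling between cells (5.89, 5.62 and 4.06-fold), Foxo1, a forkhead factor of insulin signalling (5.88, 4.20 and 3.68-fold), Tnrc18 (6.10, 4.64 and 4.14-fold) and Ttc34 (5.84, 5.23 and 4.18-fold). Sfi1, Src, Prmt8 and Lmbrd1 also had 3, with folds between 3.23 and 5.01. Sfi1, a centrosome protein, had 16, 16 and 12 fragments at folds of 4.21, 3.97 and 3.23. The backgrounds solved for these were 3.04, 3.28 and 3.02 fragments, and for Ttc34 2.76, 1.49 and 3.07. Those of Elk3 were 2.04, 1.28, 2.11 and 0.622, and those of Notch1 0.527, 0.423 and 0.726. Of the genes named here with 3 or more members, Elk3 alone had a fold above 6.10. Its summits of 10.5 and 6.44-fold, at chr10:93275636 and chr10:93276607, lay under 1 kb apart. So did the Foxo1 summits of 5.88 and 4.20-fold, at chr3:52328638 and chr3:52327923. Whether such pairs were separate sites was not tested.

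Against the background of 7.19% of eligible genes, the 2 highest shares of hosts among the 14 gene lists were in amino acid transport and tRNA charging, with intervals above it. Amino acid transporters had 10 hosts among 25 eligible genes (40.0%, 21.1 to 61.3%) and cytosolic tRNA synthetases 8 among 20 (40.0%, 19.1 to 63.9%). At a stricter -log10 q of at least 5, which 1.11% of eligible genes passed, the counts were 4 (16.0%) and 3 (15%). Their members numbered 11.2 per Mb (5.62 to 20.1) and 13.8 per Mb (5.95 to 27.1), against 3.45 over all members. The median fold was 5.04 and 5.69, against 4.20.

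**Figure D4:**
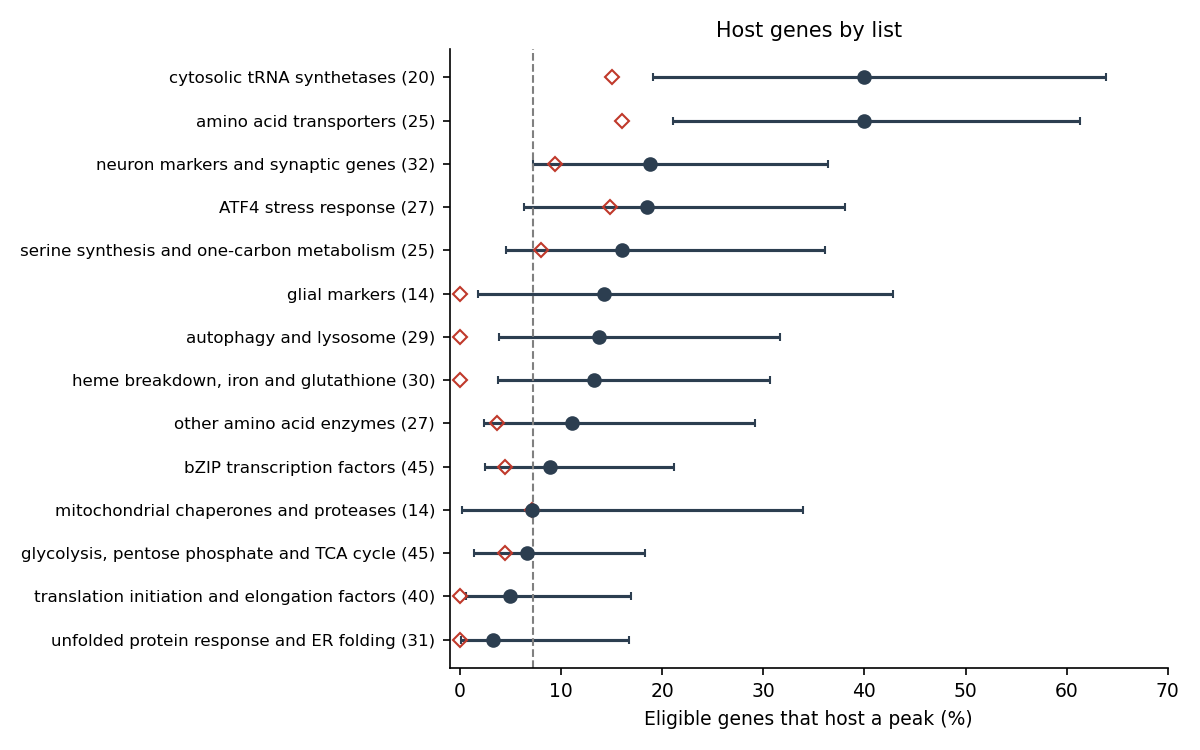
Share in percent of the eligible genes of each list that hosted a member, with the number of eligible genes in brackets. Dark points are shares with Clopper-Pearson 95% intervals, open diamonds the share hosting a member with -log10 q of at least 5, and the dashed line the 7.19% of all eligible genes; amino acid transporters and cytosolic tRNA synthetases are at 40.0%.

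Among the transporters, the 4 hosts past the stricter threshold were Slc7a5, Slc6a9, Slc3a2 and Slc38a1, the last a sodium-coupled carrier of glutamine, with 8.88-fold and 20 fragments (12.2 to 30.9). The other hosts had 3.65 to 5.12-fold on 3 to 5 fragments. They were Slc7a1 and Slc7a2, carriers of cationic amino acids, Slc7a6, Slc43a2, Slc38a9, the lysosomal arginine sensor, and Slc1a3, the glial glutamate transporter. Slc7a1 held 2 such low members and a peak of 10.2-fold and 49 fragments 627 bp from an end of the gene.

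Among the synthetases, the 3 hosts past the stricter threshold were Eprs, Aars and Sars, which charges serine tRNA and held a peak of 7.97-fold and 14 fragments (7.65 to 23.5) 1.10 kb inside its 5′ end. Rars (5.95-fold, 7 fragments), Vars (5.43-fold, 8 fragments), Lars (5.19-fold, 5 fragments), Kars (4.46-fold, 4 fragments) and Iars (4.17-fold, 4 fragments) held lower ones. Of these 8 hosts, 5 also had a peak within 1 kb of an own end, which was the taller one in Iars (19.6-fold, 72 fragments), Lars (17.3-fold, 39 fragments) and Vars (6.64-fold, 10 fragments).

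In the list of ATF4 stress response genes, 5 of 27 were hosts (18.5%, 6.30 to 38.1%), an interval that holds the 7.19% of all eligible genes, and 4 passed the stricter threshold (14.8%, 4.19 to 33.7%), above the 1.11% of all. Eif4ebp1, the repressor of cap-dependent translation, held 11.5-fold on 21 fragments (13.0 to 32.1) at 1103 bp from an end, and a second member of 3.49-fold. Vegfa, the angiogenic growth factor, held 8.91-fold on 27 fragments (17.8 to 39.3). Gdf15, a stress-induced cytokine, held 8.28-fold on 11 (5.49 to 19.7) and Bbc3, the apoptotic BH3 protein PUMA, 6.52-fold on 16 (9.15 to 26.0). The fifth host was Xpot, the tRNA exporter, with 3.68-fold inside and 15.1-fold on 32 fragments at an end. These genes were short, with a median span of 9.94 kb, and held 17.9 members per Mb (6.57 to 39.0).

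Serine synthesis and one-carbon metabolism had 4 hosts of 25 (16.0%, 4.54 to 36.1%), an interval that also holds 7.19%. Mthfd2 and its paralog Mthfd2l, with 9.92-fold on 12 fragments (6.20 to 21.0), passed the stricter threshold, and Aldh1l1 (3.62-fold, 3 fragments) was low. Of the 6 genes of this pathway that the study set out, Mthfd2 alone hosted a member. Phgdh, Psat1, Shmt2 and Aldh1l2 had 1 summit each inside their span, within 1 kb of a gene end, and Psph had none. The other enzymes of amino acid metabolism had 3 hosts of 27 (11.1%, 2.35 to 29.2%), again with 7.19% inside the interval, of which Gpt2, which makes alanine from pyruvate, held 6.44-fold on 8 fragments (3.45 to 15.8), and Bcat1 held 2 members of 3.41-fold. Both had a taller peak at an own end, of 12.9-fold on 22 fragments in Gpt2 and 10.8-fold on 17 fragments in Bcat1.

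Neuron markers and synaptic genes had 6 hosts of 32 (18.8%, 7.21 to 36.4%), an interval whose lower bound is just above the background of 7.19%. At the stricter threshold 3 passed (9.38%, 1.98 to 25.0%), above the 1.11% of all eligible genes. The list held 10 members, or 10.1 per Mb (4.86 to 18.6), against 3.45 over all members. Beside Bdnf, the hosts past the stricter threshold were Dlg4, the postsynaptic scaffold PSD-95, with 9.69-fold on 21 fragments (13.0 to 32.1), and Dcx, a microtubule protein of migrating neurons, with 8.86-fold on 10 (4.80 to 18.4). Camk2a, Npas4 and Bcl11b held members of 3.44 to 3.81-fold. The 2 glial hosts of 14 genes (14.3%, 1.78 to 42.8%, an interval that holds 7.19%) were Slc1a3 and Aldh1l1. Both are already named in other lists, and neither passed the stricter threshold. A peak does not measure expression, so these counts check no cell type.

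The remaining lists had host shares whose intervals held the background of 7.19%. In the bZIP family 4 of 45 genes were hosts (8.89%), led by Tef and by Nfil3, a repressor of the same circadian genes, with 7.63-fold on 16 fragments, and followed by Hlf and Nfe2l1 at 3.68 and 3.34-fold. Glycolysis, the pentose phosphate pathway and the TCA cycle had 3 of 45 (6.67%), which were Pfkp with 8.17-fold, Aldoa with 6.78-fold 0.135 kb upstream of a start, and Pgd with 3.44-fold. Autophagy and lysosome genes had 4 of 29 (13.8%; Wipi1, Ulk1, Atg5 and Tfeb) and heme breakdown, iron and glutathione genes 4 of 30 (13.3%; Gpx4, Fth1, Slc11a2 and Gsr), with folds of 4.60 at most. Of the mitochondrial chaperones and proteases 1 of 14 was a host (7.14%), Opa1 with 6.06-fold, which is itself a GTPase of inner membrane fusion and neither a chaperone nor a protease.

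Translation initiation and elongation factors had 2 hosts of 40 (5.00%, 0.611 to 16.9%), Eif4b and Eif2s2, and the unfolded protein response 1 of 31 (3.23%, 0.0816 to 16.7%), Edem1. All 3 were low, at 4.39, 3.62 and 3.68-fold. Eif2s2, the beta subunit of eIF2, had its tall peak at an end instead, with 20.8-fold on 60 fragments. At the stricter threshold, which 1.11% of all eligible genes passed, 5 lists had no host (0 of 31 for the unfolded protein response, 0 of 40 for translation factors, 0 of 29 for autophagy and lysosome, 0 of 30 for heme, iron and glutathione and 0 of 14 for glial markers), with upper bounds of 8.81 to 23.2%, all above that background.

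The lists that ATF4 is known for took a larger share of the tall members than of the low ones. The 5 lists of amino acid metabolism, transport, tRNA charging and the ATF4 stress response hold 123 of the 16274 eligible genes (0.756%). They held 5 of the 15 members of highest fold (33.3%, 11.8 to 61.6%), 10 of the highest 50 (20.0%, 10.0 to 33.7%) and 24 of the other 1232 (1.95%, 1.25 to 2.88%). The other 9 lists, with 1.63% of eligible genes, held 2, 4 and 26 members, or 13.3%, 8.00% and 2.11%. Of the 15 highest members, 8 lay in genes of none of the 14 lists.

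Peaks on both sides of the 2 limits of the rule were as follows. The members nearest to a gene end, at 1002 to 1007 bp, were in Zfp91 (5.43-fold), Camk1g (3.60-fold) and Rax (3.36-fold), and the peaks just too near, at 993 to 996 bp, were in Zfp57 (4.73-fold), Jund (6.44-fold) and Hcrtr1 (4.33-fold). At the limit of span, members of Wipf1 (99878 bp, 5.19 and 4.53-fold) and Ube4b (99746 bp, 4.14-fold) stood against peaks of Smarcal1 (100096 bp, 4.08-fold), Cfap43 (100598 bp, 8.86-fold) and Dcaf5 (100754 bp, 3.41-fold).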

How the data were processed

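The CUT&Tag library was amplified by the authors over 14 PCR cycles, and the submitters' processing notes name FastQC, BWA, MACS2 2.1.2, deepTools and mm10, with no role or order. The authors deposited for each peak its position, its summit, a fold enrichment over local background, which is a ratio, 2 columns of -log10 values (p and q), and a score for display that follows from q. Whether the IgG library served in calling peaks is not given in the sources used here, so folds cannot be read as enrichment over IgG. Folds as deposited were used without rescaling. The total depth of the library was not used here.

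Gene spans came from the RefSeq table of GRCm38.p6 (49943 genes, 21887 protein-coding) and starts and strands from its start windows, which name 17492 of the protein-coding genes and none on 1 of the 21 chromosomes. That chromosome holds 32 members. Exons and introns were not analysed here. Fragments at a summit were solved from the fold, taken as fragments plus 1 over background plus 1, and a Poisson p-value, and all 7873 peaks met the deposited -log10 p within 0.001. If peaks were called on single reads, these are reads. PCR copies are not independent molecules, so intervals (Poisson, Clopper-Pearson, order statistics for medians) cover counting error only. A host was eligible if at least 1 of its bases could have held a member.

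Genes named are the 15 members of highest fold, 10 hosts of 3 or more members, hosts from 14 hand-written lists (448 genes), the 6 one-carbon genes of the study, peaks at the limits of the rule and the members farthest from an end. Tmem268 was named after its values were seen. Some genes that the rule names are not reported here. The members and lists were chosen with earlier results of these data known. The solution of fragments and the eligible bases were tested on simulated data. Alternatives were other distances from gene ends, protein-coding ends alone, the shortest host, stricter peaks, the peak middle and span limits of 50 and 200 kb. The work was done in Python 3.11.15 with pandas 2.3.3, scipy 1.17.1, numpy 2.4.6 and, for plots, matplotlib 3.10.9.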

Additional observations from a re-analysis of the deposited data

How the results depend on the processing

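The density inside shorter genes stayed above that inside longer genes in each of 9 alternatives (1.27 to 1.43 times, the highest, 1.43, with -log10 q of at least 5). None of the 9 compared bases at equal distance from a gene end. The number of members was 185 with -log10 q of at least 5, 253 with at least 6 fragments and 785 with a span limit of 50 kb, and their median fold was 6.92 and 6.48 for the first pair. The share within 5 kb of the nearer end was 40.8% when 500 bp were kept from gene ends, 17.0% with 3000 bp, 40.5% with -log10 q of at least 5, 40.3% with at least 6 fragments, 47.0% with a limit of 50 kb and 26.4% with 200 kb. The share of eligible genes that were hosts was 7.68%, 6.74%, 1.11%, 1.44%, 5.39% and 9.09% under the same 6 settings. The distance and span limits set which bases and genes can count, so these shares follow in part from the settings themselves. The shares on the 5′ side, at starts and in the gene lists were not recomputed under the distance and span settings. Leaving out the 2 members of most fragments, chosen after seeing the data, kept the median fold at 4.20. The density 1 to 2 kb inside the 5′ end over that 10 to 20 kb inside was 2.12 over 1 kb from every annotated start and 4.24 with at least 6 fragments, also chosen after seeing the data.

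No paired analysis was possible because 1 library was analysed and no test was made. With 1 library, a peak could not be checked in a second culture, and 43.5% of members rest on 3 fragments. The background of each peak was solved from the list itself. Whether IgG entered it through peak calling is not known from the sources used here. A host was assigned by position alone. Strand was known for 1028 of 1282 members.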

Other observations

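Members were spread unevenly over the chromosomes relative to the bases in which they could fall. Chromosome 11 held the most per Mb, 117 members or 4.54 (3.76 to 5.44), and chromosomes 8 and 19 followed with 4.36 (3.45 to 5.43) and 4.16 (3.06 to 5.53). Chromosome 14 had the lowest autosomal density, 2.50 (1.76 to 3.44), and the X chromosome 26 members or 1.81 (1.18 to 2.65). The Y chromosome held 0 members in 1.64 Mb of eligible bases (0 to 2.26 per Mb). The interval of X lay below those of 11, 8 and 19 and overlapped that of 14. The part of copy number in the density of X was not tested.

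Tall members at starts inside their hosts were also found in genes outside the lists, named here after their values were seen. Clcn3, an endosomal chloride-proton exchanger, held 10.1-fold on 14 fragments 232 bp downstream of a start, H3f3b, which encodes histone H3.3, 8.86-fold on 10 fragments 0.161 kb upstream, and Dnmt1, the maintenance DNA methyltransferase, 7.25-fold on 8 fragments 77 bp downstream. Atxn2l, an RNA-binding protein of stress granules, held 7.27-fold on 26 fragments 0.134 kb upstream of a start.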
